A study of Mus musculus with 16 samples.

Results

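Gene expression in explants of embryonic mouse brain was set against gene expression in adult mouse forebrain, both measured from total RNA that had not been amplified. The explant group (3 arrays) held tissue of OF1 mice at embryonic day 14, which the sample labels call caudal ganglionic eminence (CGE) and the extraction notes call telencephalon. The adult group, called control in the labels (3 arrays), held forebrain of an adult female mouse of the B6.C3Sn strain. Explant RNA entered at 5 µg per array, was copied with random hexamers into cDNA carrying aminoallyl-dUTP, and was coupled to Cy5 afterwards, whereas control RNA entered at 15 µg and took up dUTP-Cy5 directly. Strain, age, region, input, labelling chemistry, scan session, scanner software version and the letter prefix of the scan images' names all differed between explant and control arrays, so their parts in any difference cannot be told apart. The labels name a single forebrain and do not say whether the arrays of a group came from separate animals, so the p-values measure the spread between arrays, which may be technical.

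The genes described are those with moderate signal on both sides. A probe belonged to the set if its foreground intensity was above the local background by more than 2 background SD, was below the scanner's saturation limit and carried no bad-spot mark, on all 6 arrays. This held for 2106 of the 24109 gene probes on an array, and these stood for 1901 named genes, with 154 probes left unnamed. Each gene is given by the brightest of its probes in the set. Values are log2 normalized intensities, so a difference of 1 is a doubling. Differences are explant minus control with their standard error, and all p-values come from limma, adjusted by Benjamini-Hochberg over the 13829 probes tested, with 0.05 as the threshold.

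The embryonic ventral telencephalon is a germinal tissue. Its ganglionic eminences hold dividing progenitors that give rise to GABAergic interneurons, which then migrate away, and dividing cells use large amounts of DNA replication, chromatin, nucleolar and nuclear transport proteins. The adult forebrain is made up largely of neurons that no longer divide, with mature ion channels, synapses and neurofilaments, and of myelinating and supporting glia. A shift in bulk tissue between such genes can come from fewer cells of a type or from less RNA per cell, which cannot be told apart here.

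Explant arrays were dimmer than control arrays. They detected 27.7%, 13.3% and 26.1% of gene probes, against 68.8%, 64.9% and 63.9% on the control arrays. Explant replicate 2 was the dimmest, with 10.6% of its gene spots marked bad and a median background-subtracted intensity of 173, against 1101.5 and 1064 on the other explant arrays. Over the moderate-signal probes, explant replicate 3 correlated at 0.68 with replicate 1 and 0.76 with replicate 2, against 0.89 between replicates 1 and 2, and control arrays correlated at 0.82 to 0.90. The faintest detected probes, at the 5th percentile, sat at 11.82 ± 0.58 on explant arrays and 9.89 ± 0.10 on control arrays (SD, n = 3 each). Membership therefore asked for a higher normalized level on explant arrays than on control arrays, and counts over the set are read beside that.

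Marker genes of the labelled tissues were checked first, including markers outside the moderate-signal set. Of the interneuron lineage factors, Dlx1 was higher by 3.53 ± 0.28 (adjusted p = 1.44e-04), Dlx6 by 1.72 ± 0.23 (adjusted p = 0.00107), Nr2f1 by 3.40 ± 0.61 (adjusted p = 0.00415) and Nr2f2 by 4.19 ± 0.27 (adjusted p = 7.04e-05). Nr2f2, a nuclear receptor prominent in the CGE, had 14.53, 14.42 and 14.80 on the explant arrays, against 10.23, 10.82 and 10.13 on the control arrays. Sp8, another CGE factor, was undetected on all 6 arrays, and Prox1, detected on 2 of the 3 explant arrays and all 3 control arrays, differed by 0.48 ± 0.25 (adjusted p = 0.154). Gad1, which makes GABA, was lower (-0.84 ± 0.26, adjusted p = 0.0353), while Gad2 differed by 1.25 ± 0.52 (adjusted p = 0.0892). Summed over 11 measured interneuron markers, normalized intensity was 194 to 226 on explant arrays and 62.8 to 76.5 on control arrays, in units of 1000 that also apply to the sums below. Over 7 progenitor markers the sum was 68.0 to 113 on explant arrays and 14.7 to 16.5 on control arrays, and over 8 young neuron markers 193 to 229 on explant arrays and 32.4 to 42.1 on control arrays. Fabp7 and Mki67 were higher among the progenitor markers, whereas Vim (0.82 ± 1.29, adjusted p = 0.633) and Hes5 (0.91, adjusted p = 0.0589) did not pass. Vim had 13.80, 9.23 and 14.94 on the explant arrays, against 11.46, 11.94 and 12.09 on the control arrays, so its value rests on widely spread arrays. Pax6 was undetected on all 6 arrays and Hes1 on all explant arrays. Of the young neuron markers Dcx, Tubb3, Sox11, Igfbpl1 and Nrep were higher, whereas Sox4 (2.24 ± 0.97, adjusted p = 0.0994) and Gap43 (-0.22, adjusted p = 0.637) did not pass. Sox4 also varied between arrays, with 14.9, 14.8 and 11.3 on the explant arrays, against 11.4, 10.5 and 12.5 on the control arrays. Stmn2 was detected on 1 explant array and 2 control arrays. All 9 mature neuron markers were lower, and their sum was 32.9 to 40.4 on explant arrays and 233 to 264 on control arrays. All 7 oligodendrocyte markers (among them Mbp, Mobp, Mog, Mag, Cnp and Cldn11) were undetected on every explant array, and 6 of them were lower.

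Summed levels of markers of other cell types were also compared. Explant arrays detected only 13.3% to 27.7% of all gene probes, against 63.9% to 68.8% on control arrays. Counts of undetected markers, here and for the oligodendrocyte markers above, are to be read beside those shares. Over 6 astrocyte markers the sum was 49.5 to 52.4 on explant arrays and 60.5 to 104 on control arrays, with Aqp4 and Slc1a2 undetected on explant arrays and Aldoc detected on 1 control array alone. Aqp4 (-4.55 ± 0.25, adjusted p = 4.46e-05), Slc1a2 (-3.81 ± 0.34, adjusted p = 2.11e-04) and Gfap (-2.80 ± 0.48, adjusted p = 0.00344) were lower. Of the other astrocyte markers, Glul was higher by 0.99 ± 0.33 (adjusted p = 0.0443), a call lost in some other scalings, and Slc1a3 differed by 0.02 ± 0.42 (adjusted p = 0.979). Over 5 microglial markers the sum was 14.2 to 27.2 on explant arrays and 31.1 to 37.2 on control arrays. Csf1r (-1.22, adjusted p = 0.0187) and Tyrobp (-1.95, adjusted p = 0.00503) were lower and undetected on explant arrays. C1qa (-0.73, adjusted p = 0.186), detected on all 6 arrays, C1qb (-1.11, adjusted p = 0.186) and Cx3cr1 (-0.62, adjusted p = 0.082) did not pass. Aif1, not in the sum, was detected on 1 explant array and 1 control array. Of the vessel markers, Pecam1 was lower (-1.87 ± 0.43, adjusted p = 0.0108). Flt1 (-0.85, adjusted p = 0.156), Cldn5 (-0.39, adjusted p = 0.285) and Kdr (-0.21, adjusted p = 0.533) did not pass. These 4 vessel markers summed to 8.48 to 13.3 on explant arrays and 14.6 to 18.4 on control arrays, and Pecam1, Cldn5 and Pdgfrb were undetected on explant arrays, Pdgfrb being detected on 1 control array alone. The 5 erythroid markers were the other way round, at 18.4 to 26.3 on explant arrays and 5.23 to 6.35 on control arrays, with the embryonic globin Hbb-y higher by 3.39 ± 0.22 (adjusted p = 6.44e-05) and Hba-x and Alas2 among the 3 undetected on explant arrays. The 6 choroid plexus and meningeal markers summed to 13.0 to 17.5 on explant arrays and 34.8 to 37.5 on control arrays, with 5 of 7 undetected on explant arrays, 1 of them (Folr1) also on every control array. The 6 pallial markers summed to 24.9 to 26.2 on explant arrays and 21.6 to 64.3 on control arrays, with 4 of 8 undetected on explant arrays, 2 of them (Neurog2 and Emx2) also on every control array. Of the others, Tbr1 was higher by 1.07 ± 0.32 (adjusted p = 0.0321) and Emx1 was lower (-1.41 ± 0.46, adjusted p = 0.0432), while Neurod2 (-1.26, adjusted p = 0.0618) and Neurod6 (0.08, adjusted p = 0.921) did not pass. The part of these cell types in the differences below was not tested.

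Differences over the moderate-signal set leaned towards the explants. Of its 2106 probes, 927 (44%) were higher and 131 (6.22%) lower in explants, and the median difference was 0.75. Over all 13829 tested probes the balance was the opposite, with 15% higher and 27% lower and a median of -0.31. The middle 50% of the set lay between -0.03 and 1.54, the central 90% between -0.91 and 2.86, and the extremes were -2.73 and 4.95. The median standard error of a probe was 0.29, and the smallest difference that passed was 0.62. The explant and control values of 1338 probes (63.5%) did not overlap, against 57.4% of all tested probes. Without explant replicate 2, the dimmest array, 812 members were higher and 107 lower, and without explant replicate 3 the counts were 948 higher and 123 lower.

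The lean depended on how moderate signal was defined. In a window with the same limits for both groups, chosen after seeing the data, both group means had to lie above the 75th percentile of all normalized values and below the brightest 2.5%. There, 345 of 2328 genes (14.8%) were higher and 334 (14.3%) lower in explants, and the median over the window's probes was -0.02. By gene in the moderate-signal set, 831 of 1901 (43.7%) were higher and 117 (6.15%) lower with a median of 0.74, and outside it 965 of the 9573 other tested genes (10.1%) were higher and 2939 (30.7%) lower. The count of a gene list is therefore given with its count in this shared window, and its median is to be read beside 0.74. Under 5 other scalings of the same arrays the median of the set ran from 0.10 to 0.81 and called probes stayed mostly higher, 55.7% to 90.6% of them, while 506 genes were higher and 81 lower in the main scaling and all 5 others. In what follows, a gene is said to hold where it passed in the same direction under all 5 scalings and with each array left out in turn, and a list gene given below as passing and not said to hold lost its call in at least 1 of these settings. Holding concerns the call alone, and the differences and folds given are those of the main scaling, whose sizes changed under the others.

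**Figure D1:**
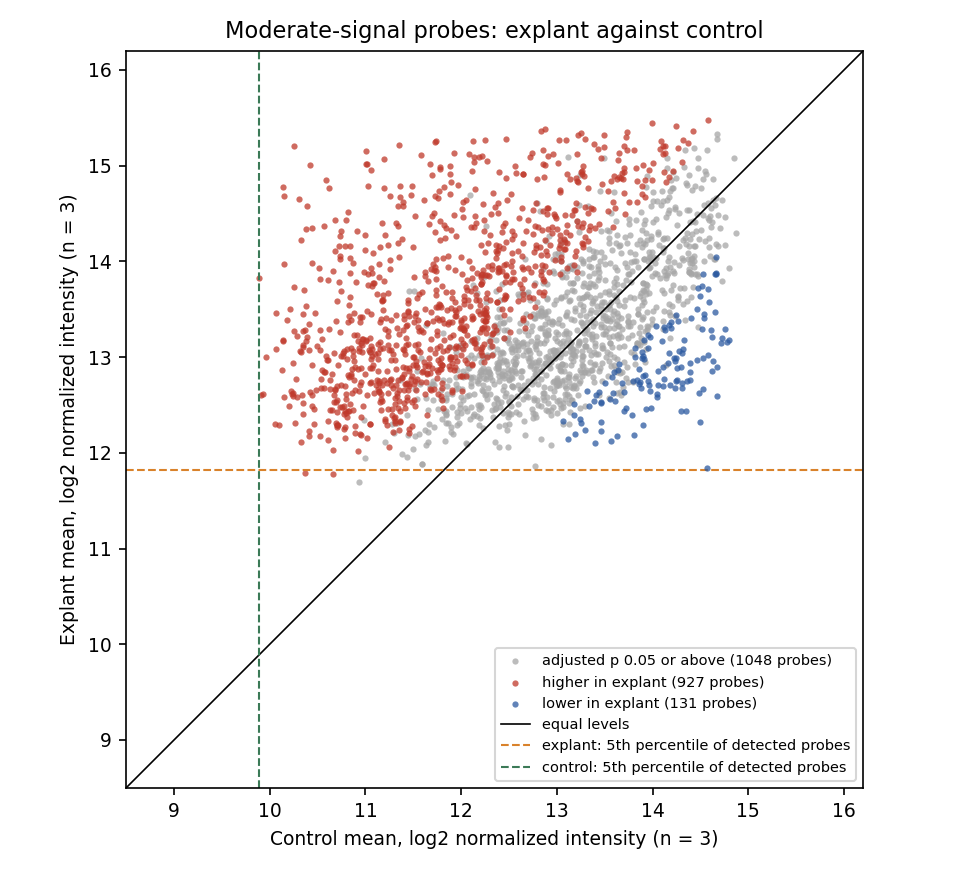
Mean log2 normalized intensity on the 3 explant arrays (vertical axis) against the 3 control arrays (horizontal axis) for the 2106 moderate-signal probes, coloured by whether the probe was higher in explants (927), lower in explants (131) or did not pass (1048). Dashed lines mark the 5th percentile of detected levels, 11.82 for explants and 9.89 for control, so the cloud starts higher on the explant axis than on the control axis.

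The BAF complex was represented by 9 of its 20 listed subunits, of which 5 were higher and none lower in explants. BAF is an ATP-driven remodeller that slides nucleosomes, and it swaps subunits when neural progenitors become neurons. Bcl7a, an accessory subunit, had 14.19, 13.47 and 12.48 on the explant arrays, against 10.85, 10.35 and 10.88 on the control arrays, a difference of 2.69 ± 0.43 (adjusted p = 0.00268). Smarce1, the HMG-domain subunit, had 14.80, 14.47 and 13.99 on the explant arrays, against 11.80, 11.79 and 11.75 on the control arrays, a difference of 2.64 ± 0.27 (adjusted p = 3.71e-04). For both genes every explant array lay above every control array. Arid1a, the DNA-binding subunit of the canonical complex, was higher by 1.55 ± 0.31 (adjusted p = 0.00607), Bcl7c by 1.48 ± 0.27 (adjusted p = 0.00447) and the ATPase Smarca4 by 1.24 ± 0.30 (adjusted p = 0.0133). The alternative ATPase Smarca2 differed by 0.26 ± 0.41 (adjusted p = 0.634), with overlapping groups. Dpf3, which belongs to the neuronal form, had 13.93, 13.44 and 13.47 on the explant arrays, against 13.84, 13.98 and 13.59 on the control arrays, and its groups overlapped at a difference of -0.19 ± 0.25 (adjusted p = 0.577). Smarcc2 (0.80, adjusted p = 0.0525) and Smarcd1 (-0.12, adjusted p = 0.864) did not pass. The swapped actin-like pair, Actl6a of progenitors and Actl6b of neurons, was not detected on all arrays of either group, so the exchange of that pair could not be followed. Other swapped subunits were tested outside the set. There 0 higher and 1 lower of 2 progenitor-form genes passed, and 0 higher and 0 lower of 2 neuron-form genes. The list median was 1.24 beside 0.74, the window count was 3 higher and 1 lower of 9, and 3 higher and 1 lower of 8 subunits tested outside the set passed. Bcl7a, Smarce1 and Bcl7c held, whereas Arid1a was lost in the authors' deposited values and Smarca4 there and under median centring.

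Heterochromatin and histone deacetylase genes were higher in 7 of 10 measured cases and lower in none, with a median of 1.48. Lmnb1, the B-type lamin that lines the nuclear envelope, had 14.58, 14.36 and 14.62 on the explant arrays, against 11.07, 10.98 and 10.41 on the control arrays, a 13-fold rise at 3.70 ± 0.26 (adjusted p = 9.34e-05). Chd4, the ATPase of the NuRD complex, had 14.93, 14.48 and 14.69 on the explant arrays, against 11.83, 11.96 and 11.88 on the control arrays, a difference of 2.81 ± 0.23 (adjusted p = 1.65e-04). Cbx1, a heterochromatin protein that binds methylated histone H3, had 13.25, 13.05 and 13.56 on the explant arrays, against 10.13, 10.58 and 10.39 on the control arrays, a difference of 2.92 ± 0.25 (adjusted p = 1.99e-04). In each of these 3 genes the lowest explant array was above the highest control array. Suv39h2, which writes that methyl mark, was higher by 1.65 ± 0.31 (adjusted p = 0.00512), the co-repressor Trim28 by 1.15 ± 0.25 (adjusted p = 0.00942), Cbx5 by 1.31 ± 0.30 (adjusted p = 0.0108) and the deacetylase Hdac2 by 1.67 ± 0.37 (adjusted p = 0.00959). Its close relative Hdac1 differed by 0.39 ± 0.30 (adjusted p = 0.326) with overlapping groups, and Hdac11 (0.11, adjusted p = 0.777) and the NuRD subunit Mta1 (0.55, adjusted p = 0.26) did not pass. In the shared window 1 higher and 1 lower of 5 list genes passed, and outside the set 3 higher and 3 lower of 11. Lmnb1, Chd4, Cbx1 and Suv39h2 held.

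DNA methylation genes gave 1 rise and 1 fall. Dnmt1, which copies methylation onto new DNA, had 14.89, 14.07 and 14.72 on the explant arrays, against 13.59, 13.12 and 13.37 on the control arrays, a difference of 1.20 ± 0.29 (adjusted p = 0.0144). Its second probe in the set differed by 0.26 (adjusted p = 0.459), and the call of the brighter probe was lost under median centring (adjusted p = 0.144), in the deposited values (adjusted p = 0.0986) and without control replicate 2 (adjusted p = 0.0567). Tet3, which oxidises methylcytosine, ran the other way with 13.13, 13.68 and 12.82 on the explant arrays, against 14.65, 14.32 and 14.90 on the control arrays, and its difference of -1.41 ± 0.30 (adjusted p = 0.00848) held. Uhrf1, which brings Dnmt1 to replicating DNA, differed by 1.11 ± 0.83 (adjusted p = 0.313) and the Polycomb ring-finger gene Bmi1 by -1.16 ± 0.45 (adjusted p = 0.0744), so neither passed. Only 4 of the 28 Polycomb and methylation genes were in the set, with a median of -0.02, and in the shared window 1 higher and 2 lower of 6 passed. The count outside the set was 5 higher and 4 lower of 16.

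Replication genes in the set were few but mostly higher. Of 49 genes listed, 6 were measured at moderate signal, and 4 were higher and 1 lower, with a median of 1.64. Pcna, the sliding clamp of DNA polymerases, had 13.84, 13.91 and 14.52 on the explant arrays, against 10.70, 11.25 and 11.29 on the control arrays, an 8.06-fold rise at 3.01 ± 0.29 (adjusted p = 3.15e-04). Paics, an enzyme of purine synthesis, had 14.87, 14.39 and 14.99 on the explant arrays, against 12.45, 11.80 and 12.17 on the control arrays, a difference of 2.61 ± 0.28 (adjusted p = 4.82e-04). Pole, the catalytic subunit of a leading-strand polymerase, was higher by 1.93 ± 0.22 (adjusted p = 6.20e-04), and Orc6, of the origin recognition complex, by 1.35 ± 0.30 (adjusted p = 0.00994). Fen1 ran against the others. This flap endonuclease, which trims Okazaki fragments, had 13.37, 13.03 and 13.14 on the explant arrays, against 14.48, 14.44 and 14.06 on the control arrays, and all explant arrays lay below all control arrays at -1.15 ± 0.24 (adjusted p = 0.0079). Shmt2, a mitochondrial enzyme of one-carbon supply, differed by 0.32 ± 0.36 (adjusted p = 0.504). Pcna, Paics, Pole and the fall of Fen1 held. In the shared window 1 higher and 1 lower of 6 passed, and outside the set 9 higher and 4 lower of 24 did.

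Chromosome segregation genes had the list median furthest above 0.74 among the 22 lists with at least 4 genes in the set, at 2.17. Rad21, the cleavable ring subunit of cohesin, had 14.97, 14.56 and 13.67 on the explant arrays, against 11.56, 11.18 and 11.22 on the control arrays, a difference of 3.08 ± 0.36 (adjusted p = 6.55e-04). Mad2l1, a spindle checkpoint protein, had 12.88, 12.95 and 13.40 on the explant arrays, against 10.53, 10.58 and 10.48 on the control arrays, a difference of 2.55 ± 0.24 (adjusted p = 2.77e-04). Anapc5, a subunit of the anaphase-promoting complex, had 13.83, 13.34 and 12.52 on the explant arrays, against 10.78, 11.03 and 10.92 on the control arrays, a difference of 2.32 ± 0.35 (adjusted p = 0.00198). Explant and control arrays did not overlap for any of these 3 genes. The cohesin subunit Stag1 was higher by 2.04 ± 0.36 (adjusted p = 0.00368), the kinetochore protein Nuf2 by 2.17 ± 0.51 (adjusted p = 0.0122) and the spindle protein Nusap1 by 1.56 ± 0.42 (adjusted p = 0.0203), so that 6 of 7 were higher and none lower. Cdc20, which activates the anaphase-promoting complex, was the exception, with 13.57, 13.87 and 14.35 on the explant arrays, against 14.08, 14.32 and 14.03 on the control arrays and overlapping groups, at -0.21 ± 0.27 (adjusted p = 0.557). Rad21, Mad2l1, Anapc5, Stag1 and Nuf2 held, and Nusap1 was lost under median centring, in the deposited values and without explant replicate 1 or control replicate 2 or 3 (adjusted p = 0.0578 to 0.0727). Within the shared window 1 higher and 0 lower of 2 passed, and 5 higher and 0 lower of 14 outside the set.

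Genes of ribosome assembly moved in both directions. Npm1, a histone chaperone of the nucleolus, had 13.22, 13.43 and 15.27 on the explant arrays, against 9.73, 10.25 and 10.48 on the control arrays, and the difference of 3.82 ± 0.54 (adjusted p = 0.0015) came with a wide spread on explant arrays. Ncl, the major nucleolar RNA-binding protein, had 12.90, 12.86 and 13.11 on the explant arrays, against 11.58, 10.67 and 10.41 on the control arrays, a difference of 2.07 ± 0.33 (adjusted p = 0.00269). Nop58, a core protein of box C/D guide particles that methylate ribosomal RNA, was higher by 1.78 ± 0.22 (adjusted p = 8.40e-04), and Ebna1bp2, a large-subunit assembly factor, by 1.21 ± 0.24 (adjusted p = 0.00644). Nop10, of the box H/ACA particles that make pseudouridine, was instead lower. Its values were 12.95, 13.01 and 13.24 on the explant arrays, against 14.24, 14.77 and 13.83 on the control arrays, a difference of -1.21 ± 0.30 (adjusted p = 0.0143). Fbl, the methyltransferase that works with Nop58, differed by 1.36 ± 0.49 (adjusted p = 0.0585) and did not pass, nor did Ubtf, an RNA polymerase I factor, at -0.27 ± 0.28 (adjusted p = 0.469). Of the 7 measured genes 4 were higher and 1 lower, with a median of 1.36. Npm1, Ncl, Nop58 and Nop10 held. In the window the count was 0 higher and 1 lower of 6, and outside the set 2 higher and 1 lower of 15.

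Of the 14 listed genes of the CCT chaperonin and prefoldin, which fold new actin and tubulin, 5 were in the set. All 5 were higher, with a median of 1.87. Pfdn5 had 15.03, 14.89 and 14.81 on the explant arrays, against 11.89, 11.33 and 12.45 on the control arrays, a difference of 3.02 ± 0.32 (adjusted p = 4.19e-04). Tcp1, the alpha subunit of the ring, had 14.59, 14.52 and 14.86 on the explant arrays, against 11.49, 12.40 and 11.38 on the control arrays, a difference of 2.90 ± 0.32 (adjusted p = 5.28e-04). Cct2 was higher by 1.87 ± 0.31 (adjusted p = 0.00318), Cct3 by 1.27 ± 0.27 (adjusted p = 0.0081) and Vbp1 by 1.35 ± 0.26 (adjusted p = 0.00517). No explant array of these genes fell among the control arrays. In the shared window 3 higher and 0 lower of 5 passed, and outside the set 4 higher and 0 lower of 7. Pfdn5, Tcp1 and Cct2 held, while Vbp1 was lost in the deposited values and Cct3 there and under median centring. Among aminoacyl-tRNA synthetases, which load amino acids on tRNA, Gars was higher by 1.59 ± 0.26 (adjusted p = 0.00272) and Nars by 1.37 ± 0.31 (adjusted p = 0.0107), but Aars (0.36, adjusted p = 0.25) and Mars1 (0.79, adjusted p = 0.056) did not pass. Both calls held. The synthetase median was 1.08, the window count was 0 higher and 0 lower of 6, and outside the set 1 higher and 1 lower of 13 synthetase genes passed.

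Nuclear transport genes were higher in 5 of 8 cases and lower in none, with a median of 1.66. Xpo1, the main nuclear export receptor, had 14.28, 13.68 and 13.97 on the explant arrays, against 10.95, 10.93 and 10.71 on the control arrays, an 8.66-fold rise at 3.11 ± 0.25 (adjusted p = 1.47e-04). Kpna2, an importin alpha adaptor, had 13.01, 13.08 and 12.94 on the explant arrays, against 10.41, 10.86 and 11.02 on the control arrays, a difference of 2.25 ± 0.25 (adjusted p = 5.28e-04). Alyref, which passes mRNA to the export machinery, had 12.79, 13.06 and 14.32 on the explant arrays, against 10.72, 10.96 and 10.86 on the control arrays, a difference of 2.54 ± 0.40 (adjusted p = 0.00253). The 3 genes had no overlap between groups. The nucleoporin Seh1l was higher by 1.72 ± 0.35 (adjusted p = 0.00697) and the import receptor Kpnb1 by 1.25 ± 0.30 (adjusted p = 0.0132). Ipo7 (1.07, adjusted p = 0.0674), Ipo9 (0.55, adjusted p = 0.187) and the Ran carrier Nutf2 (1.60, adjusted p = 0.0879) did not pass. Xpo1, Kpna2, Alyref and Seh1l held, and the window count was 1 higher and 2 lower of 9. Outside the set 6 higher and 4 lower of 29 passed.

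Of 11 ubiquitin pathway genes in the set, 7 were higher and none lower, with a median of 1.48. Ube2e3, a ubiquitin-conjugating enzyme, had 12.99, 12.83 and 13.44 on the explant arrays, against 10.76, 10.97 and 10.68 on the control arrays, a difference of 2.28 ± 0.25 (adjusted p = 5.40e-04). Uba3, the catalytic subunit of the Nedd8-activating enzyme, was higher by 1.88 ± 0.33 (adjusted p = 0.0039) and Ube2g1 by 1.55 ± 0.28 (adjusted p = 0.00418). Skp1, the adaptor of cullin ligases, rose by 2.06 ± 0.40 (adjusted p = 0.0055), Ube2d3 by 1.86 ± 0.39 (adjusted p = 0.00759), Ube2s, which extends chains for the anaphase-promoting complex, by 1.48 ± 0.27 (adjusted p = 0.00441) and Ube2e1 by 1.05 ± 0.23 (adjusted p = 0.00876). Nedd8 itself differed by 0.37 ± 0.36 (adjusted p = 0.435), Cul3 by 0.05 ± 0.27 (adjusted p = 0.901), Rbx1 by 0.73 ± 0.51 (adjusted p = 0.28) and Ube2m by -0.30 ± 0.29 (adjusted p = 0.439), so the modifier and 3 of its partners did not pass beside Uba3. Of the 7 rises 6 held; Ube2e1 was lost under median centring and in the deposited values. Window counts were 2 higher and 0 lower of 9, and counts outside the set 4 higher and 1 lower of 20.

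**Figure D2:**
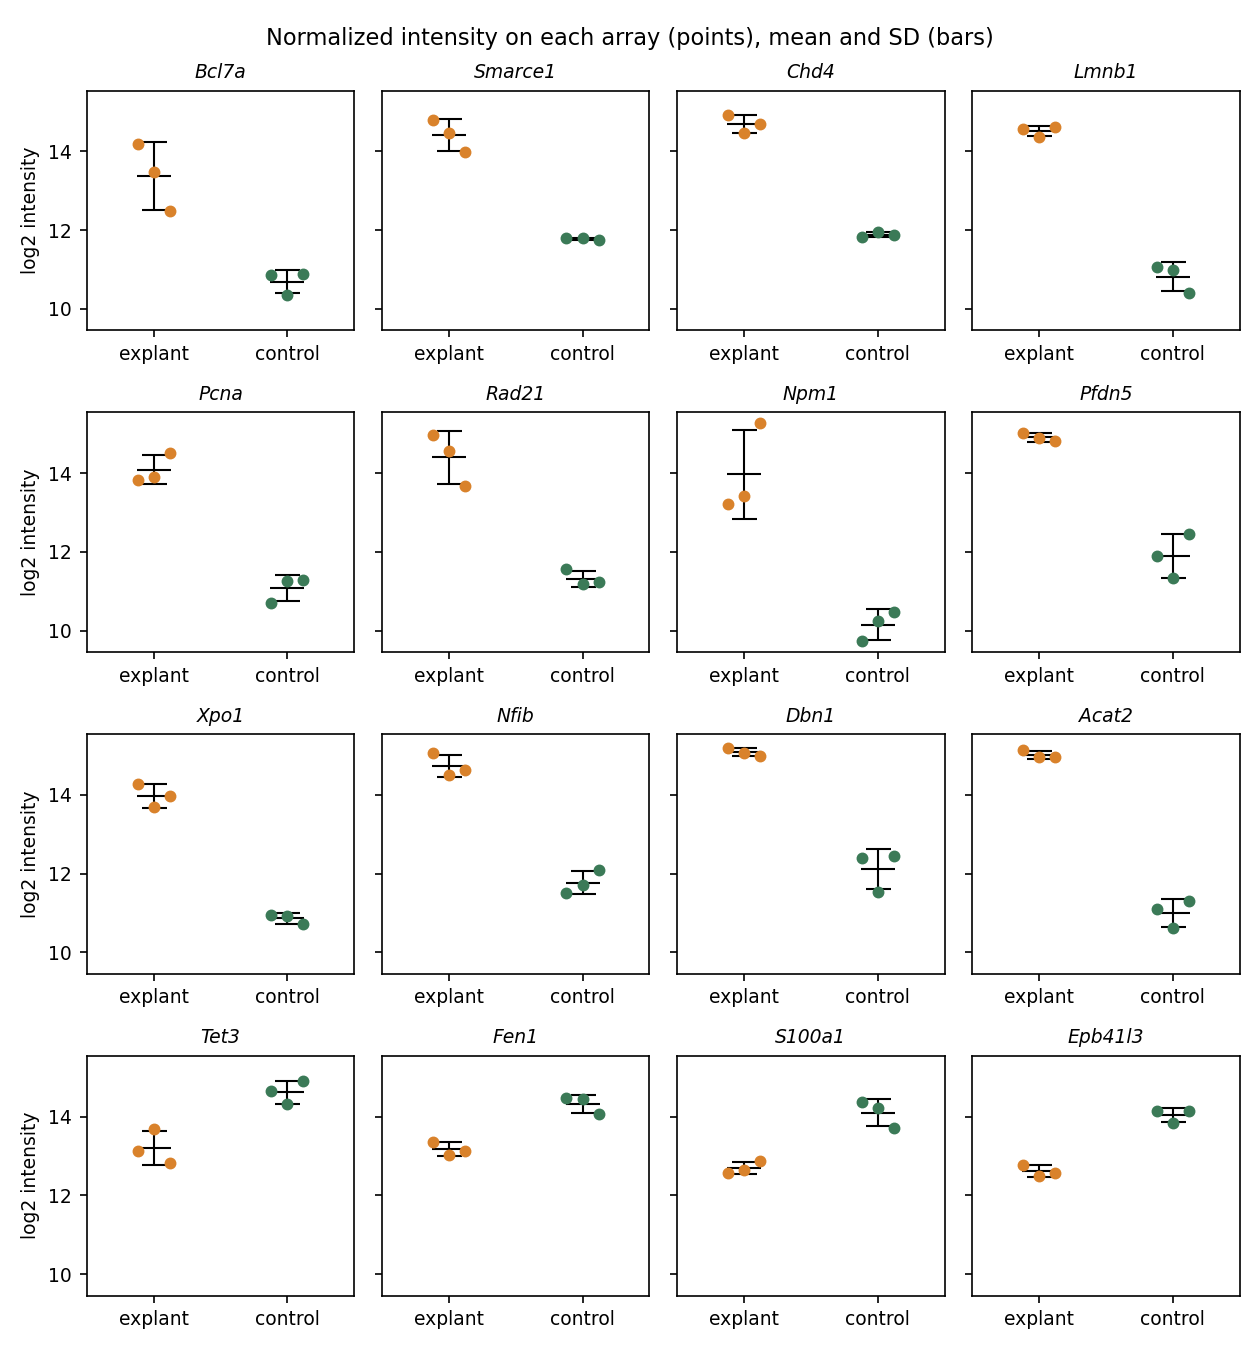
Log2 normalized intensity (vertical axis) of 16 genes on each explant array and each control array, with the mean and SD of each group (n = 3 each). Explant arrays lie above control arrays for Bcl7a, Smarce1, Chd4, Lmnb1, Pcna, Rad21, Npm1, Pfdn5, Xpo1, Nfib, Dbn1 and Acat2, and below them for Tet3, Fen1, S100a1 and Epb41l3.

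Imprinted genes and the insulin-like growth factor axis moved in both directions. Imprinted genes are expressed from 1 parental copy, and many act on growth before birth. Grb10, an adaptor that restrains insulin and growth factor receptors, had 13.14, 12.92 and 13.72 on the explant arrays, against 10.38, 11.43 and 10.40 on the control arrays, a difference of 2.52 ± 0.37 (adjusted p = 0.00173). Ndn, a neuronal growth suppressor of the Prader-Willi region, had 14.69, 14.31 and 12.75 on the explant arrays, against 11.83, 11.49 and 11.73 on the control arrays, a difference of 2.23 ± 0.48 (adjusted p = 0.00883). Peg10, derived from a retrotransposon, had 14.02, 13.64 and 13.63 on the explant arrays, against 12.32, 11.85 and 12.47 on the control arrays, a difference of 1.55 ± 0.27 (adjusted p = 0.00342). These 3 rises held, and none of the 3 genes showed overlap between groups. Cdkn1c, an inhibitor of cyclin-dependent kinases, was lower, with 12.58, 12.92 and 12.20 on the explant arrays, against 13.70, 13.69 and 13.27 on the control arrays. Its difference of -0.99 ± 0.28 (adjusted p = 0.025) passed under all 5 scalings but was lost without explant replicate 1 or control replicate 1 or 2 (adjusted p = 0.0606 to 0.0912). Dlk1, a Notch-like ligand, differed by -0.73 ± 0.24 (adjusted p = 0.044), and that call was lost under 2 scalings and without explant replicate 1, 2 or 3 or control replicate 1, 2 or 3 (adjusted p = 0.057 to 0.12). Mest, a hydrolase-like protein, had 13.58, 13.70 and 14.34 on the explant arrays, against 12.50, 13.19 and 13.20 on the control arrays and did not pass at 0.91 ± 0.32 (adjusted p = 0.0522), nor did Igfbp2, which binds the growth factors, at 0.50 ± 0.29 (adjusted p = 0.196). With 3 higher and 2 lower of 7 the median was 0.91, and the window count was 1 higher and 4 lower of 9. The count outside the set was 1 higher and 5 lower of 17.

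Of 64 developmental transcription factors listed, 15 were in the set, and 10 of these were higher and none lower, with a median of 1.32. Nfib, a nuclear factor I protein of forebrain development, had 15.07, 14.52 and 14.63 on the explant arrays, against 11.50, 11.72 and 12.09 on the control arrays, a 7.81-fold rise at 2.97 ± 0.27 (adjusted p = 2.45e-04). A second Nfib probe in the set differed by 2.96. Pou3f3, a POU factor of neural progenitors and upper-layer neurons, had 15.20, 15.09 and 14.49 on the explant arrays, against 12.71, 12.37 and 12.62 on the control arrays, a difference of 2.36 ± 0.27 (adjusted p = 6.36e-04). Explant arrays were above control arrays throughout for both genes. Mef2a was higher by 1.69 ± 0.31 (adjusted p = 0.00475), Tcf12 by 1.36 ± 0.26 (adjusted p = 0.00529), Bcl11b by 1.72 ± 0.45 (adjusted p = 0.0181), Zeb2, which steers interneuron fate, by 1.32 ± 0.37 (adjusted p = 0.025) and Pou3f2 by 1.03 ± 0.23 (adjusted p = 0.0109). Tcf4 (0.91, adjusted p = 0.0175) and Mxi1 (0.98, adjusted p = 0.017) also rose. Not every factor passed: Pou3f1 differed by 0.65 ± 0.31 (adjusted p = 0.132), and Pbx2, a homeodomain cofactor, by 0.00 ± 0.29 (adjusted p = 1.00). Nfia gave 2 answers, since its brighter probe differed by -0.28 ± 0.31 (adjusted p = 0.485) and its other probe by 1.12 (adjusted p = 0.0087). Lhx5, a LIM homeodomain gene, differed by 1.82 ± 0.90 (adjusted p = 0.141) with a wide spread between arrays. Nfib, Pou3f3 and Mef2a held, while Tcf12 was lost under median centring and in the deposited values. With 1 array left out, calls were lost for Zeb2 without explant replicate 1 (adjusted p = 0.0775), for Pou3f2 without control replicate 1 (adjusted p = 0.0525), for Bcl11b without control replicate 1 or 3 (adjusted p = 0.0576 to 0.0624), for Tcf4 without explant replicate 1 or control replicate 2 (adjusted p = 0.0503 to 0.0706) and for Mxi1 without control replicate 1 (adjusted p = 0.0742), so that 7 to 11 of the 15 were higher. In the shared window 7 higher and 0 lower of 16 passed, and outside the set 4 higher and 8 lower of 35.

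Signalling and matrix lists had few genes in the set, and the following were named after their values were seen. Smad2, which carries TGF-beta and activin signals, had 12.91, 12.92 and 13.38 on the explant arrays, against 11.44, 11.05 and 10.63 on the control arrays, and its difference of 2.03 ± 0.29 (adjusted p = 0.0016) held. Its activin receptor Acvr2a was higher by 1.32 ± 0.26 (adjusted p = 0.00568). The integrin Itga6, a laminin receptor, was higher by 1.01 ± 0.22 (adjusted p = 0.00903), and the matrix proteoglycan Agrn differed by 0.87 ± 0.41 (adjusted p = 0.12). The calls of Acvr2a and Itga6 were lost under median centring and in the deposited values. Outside the set 4 higher and 10 lower of 32 Hedgehog, FGF and BMP genes and 2 higher and 11 lower of 21 matrix and integrin genes passed, and the window counts were 1 higher and 2 lower of 8 and 0 higher and 1 lower of 2.

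Actin regulators formed the largest list in the set, with 20 of 39 genes measured, 12 higher and none lower. Actin filaments drive growth cones and neuronal migration. Marcksl1, a membrane-bound actin cross-linker, had 14.90, 14.90 and 14.54 on the explant arrays, against 10.00, 10.01 and 10.40 on the control arrays, a 24.9-fold rise at 4.64 ± 0.25 (adjusted p = 3.56e-05). Under the 5 other scalings the Marcksl1 difference ran from 3.11 to 5.48. Dbn1, or drebrin, which links actin to microtubules in growth cones, had 15.19, 15.07 and 14.99 on the explant arrays, against 12.40, 11.54 and 12.44 on the control arrays, a difference of 2.96 ± 0.30 (adjusted p = 3.66e-04). Flna, a filamin needed for migration of cortical neurons, had 13.30, 13.09 and 12.80 on the explant arrays, against 11.04, 10.96 and 10.62 on the control arrays, a difference of 2.19 ± 0.25 (adjusted p = 6.27e-04), and a second probe gave 2.28. The groups did not overlap for any of the 3 genes. The capping subunit Capza1 was higher by 2.31 ± 0.29 (adjusted p = 8.78e-04), Evl, of the Ena/VASP family, by 2.13 ± 0.31 (adjusted p = 0.00158), the filament-severing Cfl1 by 2.81 ± 0.44 (adjusted p = 0.00227), profilin Pfn2 by 1.65 ± 0.23 (adjusted p = 0.00138) and ezrin (Ezr) by 1.54 ± 0.24 (adjusted p = 0.00214). Subunits of the Arp2/3 complex, which starts branched filaments, gave unlike values. Actr3 was higher by 2.10 ± 0.53 (adjusted p = 0.0162) and Arpc1a by 1.01 ± 0.26 (adjusted p = 0.0184), but Actr2 differed by -0.56 ± 0.25 (adjusted p = 0.105), Arpc2 by 0.21 ± 0.36 (adjusted p = 0.666), Arpc3 by 0.17 ± 0.29 (adjusted p = 0.663) and Arpc4 by 0.81 ± 0.58 (adjusted p = 0.29). Capzb, the partner of Capza1, differed by -0.11 ± 0.34 (adjusted p = 0.81). Cfl2 was higher by 0.75 ± 0.25 (adjusted p = 0.0464), but its difference was -0.22 (adjusted p = 0.384) in the authors' deposited values. The list median was 1.43. In the shared window 4 higher and 0 lower of 14 passed, and outside the set 5 higher and 2 lower of 15. Marcksl1, Dbn1, Flna, Capza1, Evl, Cfl1, Pfn2 and Ezr held. With 1 array left out, Actr3 was lost without control replicate 2 or 3 (adjusted p = 0.0524 to 0.0557), Arpc1a without control replicate 1 (adjusted p = 0.0765) and Cfl2 without explant replicate 1 or 3 or control replicate 1, 2 or 3 (adjusted p = 0.0744 to 0.119).

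Submembrane scaffold genes had no rise, beside the lower mature neuron marker sums above. Epb41l3, a band 4.1 protein that ties membrane proteins to spectrin, had 12.78, 12.50 and 12.57 on the explant arrays, against 14.15, 13.84 and 14.16 on the control arrays, and its difference of -1.44 ± 0.23 (adjusted p = 0.00265) held. Sptbn1, a beta spectrin, was lower (-0.82 ± 0.28, adjusted p = 0.0459), but the call was lost without explant replicate 1, 2 or 3 or control replicate 1 or 2 (adjusted p = 0.0598 to 0.159), and Ank3, the ankyrin of the axon initial segment, differed by -0.68 ± 0.24 (adjusted p = 0.0538). The 2 neurofilament-type genes in the set did not pass. Ina had 14.48, 14.08 and 14.98 on the explant arrays, against 13.58, 14.76 and 13.31 on the control arrays, and Prph had 12.41, 12.68 and 13.53 on the explant arrays, against 12.01, 13.60 and 12.68 on the control arrays, and both pairs of groups overlapped. With 2 of 5 lower and none higher, the median was -0.68 beside 0.74, and 0 higher and 5 lower of 14 of the list passed outside the set. In the shared window 0 higher and 2 lower of 7 passed.

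14-3-3 proteins, which bind phosphorylated partners, and septins, which form filaments under the membrane, gave 3 rises in 5 genes. Septin11 had 14.36, 13.82 and 14.33 on the explant arrays, against 12.95, 13.47 and 12.69 on the control arrays, a difference of 1.14 ± 0.30 (adjusted p = 0.0185). Ywhag was higher by 1.09 ± 0.30 (adjusted p = 0.0229) and Ywhaq by 0.94 ± 0.27 (adjusted p = 0.0285). Ywhab differed by 0.51 ± 0.24 (adjusted p = 0.13) and Septin2 by 1.40 ± 0.57 (adjusted p = 0.0811), neither past the threshold. A second Septin11 probe of nearly the same brightness was higher by 1.80 ± 0.26 (adjusted p = 0.00151), and it passed in all 5 other scalings and with each array left out. The calls of the probes used here depended on single arrays: Septin11 was lost without explant replicate 1 or control replicate 1 or 3 (adjusted p = 0.0585 to 0.0666), Ywhag without explant replicate 1 or control replicate 2 (adjusted p = 0.0687 to 0.0718) and Ywhaq without explant replicate 1 or 3 or control replicate 1, 2 or 3 (adjusted p = 0.0514 to 0.0747). The list median was 1.09, counts with 1 array left out ran from 0 to 4 rises, and 1 higher and 0 lower of 3 passed in the shared window. The count outside the set was 0 higher and 2 lower of 8.

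None of the 6 sodium, calcium and pacemaker channel genes in the set passed the limma test, and 0 were higher and 1 lower at an unadjusted p under 0.05. Scn3b, an auxiliary sodium channel subunit, had 12.41, 12.71 and 12.30 on the explant arrays, against 13.29, 12.98 and 12.87 on the control arrays, a difference of -0.57 ± 0.25 (adjusted p = 0.0964). Cacnb3, a calcium channel beta subunit, had 14.16, 13.75 and 14.26 on the explant arrays, against 14.41, 14.78 and 14.11 on the control arrays, a difference of -0.38 ± 0.28 (adjusted p = 0.299). The pore subunit Cacna1b differed by -0.19 ± 0.22 (adjusted p = 0.511), Cacna2d1 by -0.14 ± 0.58 (adjusted p = 0.867), the AMPA receptor partner Cacng2 by -0.22 ± 0.23 (adjusted p = 0.459) and the pacemaker channel Hcn2 by -0.08 ± 0.24 (adjusted p = 0.805). All 6 differences were below 0, and the list median of -0.21 was the lowest but 1 relative to 0.74 among the 22 lists. Outside the set 0 higher and 9 lower of 19 channel genes passed, and the window count was 0 higher and 1 lower of 9.

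Calcium sensor and calcineurin genes gave 1 rise and 1 fall among 4, with a median of 0.28, whereas in the shared window 0 higher and 3 lower of 6 passed. S100a1, an EF-hand calcium sensor, had 12.57, 12.64 and 12.87 on the explant arrays, against 14.38, 14.22 and 13.71 on the control arrays, and its difference of -1.41 ± 0.26 (adjusted p = 0.00491) held. Ncs1, neuronal calcium sensor 1, had 12.64, 12.65 and 13.42 on the explant arrays, against 11.63, 11.97 and 11.38 on the control arrays, a difference of 1.25 ± 0.31 (adjusted p = 0.0148) that was lost under median centring and without control replicate 1 or 3 (adjusted p = 0.0523 to 0.0524). The calcineurin subunits Ppp3cb (0.89, adjusted p = 0.151) and Ppp3cc (-0.33, adjusted p = 0.373) did not pass. The sodium-calcium exchanger Slc8a1, named after its values were seen as the only gene of the ion pump list in the set, was lower (-0.84 ± 0.25, adjusted p = 0.0296), a call lost without explant replicate 3 or control replicate 1 or 2 (adjusted p = 0.0524 to 0.115). Of the vacuolar proton pump, Atp6v1h was higher by 1.61 ± 0.30 (adjusted p = 0.00498) and held, while Atp6v1d differed by -0.68 ± 0.40 (adjusted p = 0.206). Those 2 were also named after their values were seen. Outside the set 1 higher and 8 lower of 14 pump genes and 1 higher and 17 lower of 25 calcium sensor genes passed. In the window 0 higher and 2 lower of 2 of the ion pump list and 0 higher and 1 lower of 4 of the proton pump list did.

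Of the G protein list 4 of 7 genes and of the receptor list 1 of 4 were higher and none lower, with medians of 0.96 and 0.76. The window counts were 0 higher and 2 lower of 8 for the G protein list and 1 higher and 1 lower of 4 for the receptor list. The 2 regulatory subunits of cAMP-dependent protein kinase in the set were higher: Prkar1a had 12.43, 12.35 and 12.57 on the explant arrays, against 10.77, 10.47 and 10.14 on the control arrays, a difference of 2.00 ± 0.25 (adjusted p = 9.22e-04), and Prkar2b rose by 1.89 ± 0.39 (adjusted p = 0.00743). They were the only genes in the set from the cyclic nucleotide part of the list. Outside the set that part ran the other way, with 0 higher and 13 lower of 21. Rgs12, which speeds GTP hydrolysis by G proteins, had 12.55, 12.45 and 11.89 on the explant arrays, against 10.77, 10.65 and 10.67 on the control arrays, a difference of 1.60 ± 0.26 (adjusted p = 0.0027). All 3 held, with no overlap of the groups. Gng5, a gamma subunit, was higher by 0.96 ± 0.24 (adjusted p = 0.0158), a call lost without control replicate 2 (adjusted p = 0.0622), whereas Gnb2 (0.22, adjusted p = 0.544), Gnb5 (0.05, adjusted p = 0.891) and Gna11 (-0.14, adjusted p = 0.661) did not pass and their groups overlapped. Among transmitter receptors the adrenergic receptor Adra2a was higher by 1.17 ± 0.33 (adjusted p = 0.0255), lost under 2 scalings and without explant replicate 1 or control replicate 1 or 3 (adjusted p = 0.057 to 0.0952). Chrnb2, a nicotinic subunit, differed by 1.02 ± 0.40 (adjusted p = 0.0745), Adrb1 by 0.50 ± 0.23 (adjusted p = 0.117) and Sstr2 by 0.00 ± 0.24 (adjusted p = 0.996). Outside the set 1 higher and 25 lower of 49 G protein, RGS and cyclic nucleotide genes and 1 higher and 14 lower of 25 receptor genes passed.

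Cholesterol genes rose at some steps of the pathway. Acat2, which joins acetyl-CoA units ahead of the mevalonate pathway, had 15.13, 14.95 and 14.96 on the explant arrays, against 11.09, 10.61 and 11.31 on the control arrays, a 16.1-fold rise at 4.01 ± 0.26 (adjusted p = 7.04e-05). Its dimmer probe also rose, by 1.15 (adjusted p = 0.0058). Cyp51, a sterol demethylase, was higher by 1.91 ± 0.38 (adjusted p = 0.00625) and Lss, which closes the sterol rings, by 0.88 ± 0.22 (adjusted p = 0.0165). Npc2, which carries cholesterol out of lysosomes, had 14.62, 14.36 and 14.23 on the explant arrays, against 12.34, 11.85 and 12.28 on the control arrays, a difference of 2.25 ± 0.25 (adjusted p = 5.45e-04). The regulator Srebf1 differed by 0.05 ± 0.31 (adjusted p = 0.917), the lipoprotein receptor Lrp8 by -0.54 ± 0.24 (adjusted p = 0.111) and the exporter Abca1 by 0.94 ± 0.35 (adjusted p = 0.0635). Of the 9 genes, 5 were higher and none lower, with a median of 0.94, and 2 higher and 1 lower of 8 passed in the window. The count outside the set was 2 higher and 5 lower of 14. Acat2, Cyp51 and Npc2 held, and Lss was lost without control replicate 1 or 2 (adjusted p = 0.0525 to 0.0575).

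Most genes of mitochondrial carbon entry did not pass. Mpc2, a subunit of the mitochondrial pyruvate carrier, had 13.14, 13.40 and 13.31 on the explant arrays, against 12.04, 12.11 and 11.94 on the control arrays, and its rise of 1.25 ± 0.22 (adjusted p = 0.00374) held. Dlst, of the oxoglutarate dehydrogenase complex, was higher by 0.82 ± 0.25 (adjusted p = 0.0322), a call lost without explant replicate 1 or 2 or control replicate 1, 2 or 3 (adjusted p = 0.0564 to 0.0817). Pdhb (-0.07, adjusted p = 0.93), Idh3b (0.14, adjusted p = 0.755) and Got2 (-0.71, adjusted p = 0.0514) did not pass, and the median of the 6 genes was 0.03. None of the 6 redox genes passed the limma test, with 1 higher and 0 lower at an unadjusted p under 0.05. The superoxide dismutase Sod1 had 13.92, 13.68 and 13.71 on the explant arrays, against 13.37, 13.65 and 13.02 on the control arrays, a difference of 0.43 ± 0.25 (adjusted p = 0.209). Ferritin light chain Ftl1 differed by 0.60 ± 0.22 (adjusted p = 0.0576), its heavy chain Fth1 by 0.05 ± 0.50 (adjusted p = 0.946), Sod2 by -0.30 ± 0.30 (adjusted p = 0.448), Gstp1 by -0.40 ± 0.22 (adjusted p = 0.181) and Aldh2 by -0.24 ± 0.27 (adjusted p = 0.506). Outside the set 1 higher and 4 lower of 16 genes of the tricarboxylic acid cycle and 3 higher and 11 lower of 27 redox genes passed. The redox median was -0.09, and the window counts were 1 higher and 1 lower of 10 for the cycle and 0 higher and 1 lower of 9 for redox genes.

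The remaining metabolic lists had 1 to 3 genes in the set, named after their values were seen. Gamt, the last enzyme of creatine synthesis, had 12.85, 12.93 and 13.02 on the explant arrays, against 14.36, 14.50 and 13.63 on the control arrays, a difference of -1.23 ± 0.29 (adjusted p = 0.012) that was lost without control replicate 1 (adjusted p = 0.0523). Glul, the glutamine synthetase that marks astrocytes in the adult, was higher by 0.99 ± 0.33 (adjusted p = 0.0443) and Glud1 by 1.52 ± 0.49 (adjusted p = 0.0409), and each call was lost under 3 or more scalings. With 1 array left out, Glul was lost without explant replicate 1, 2 or 3 or control replicate 1 or 2 (adjusted p = 0.0569 to 0.129) and Glud1 without explant replicate 1, 2 or 3 or control replicate 2 or 3 (adjusted p = 0.0519 to 0.102). Psme2, a proteasome activator, was higher by 1.08 ± 0.27 (adjusted p = 0.0149) but lost without control replicate 1 (adjusted p = 0.059), whereas the chaperone Pdia3 (0.72, adjusted p = 0.0637) and the lysosomal thioesterase Ppt1 (0.18, adjusted p = 0.805) did not pass. Outside the set 1 higher and 5 lower of 17 lysosomal, 1 higher and 3 lower of 12 antigen presentation and 0 higher and 9 lower of 10 creatine and brain metabolite genes passed, and in the window 0 higher and 1 lower of 2, 2 higher and 0 lower of 4 and 1 higher and 1 lower of 2 did.

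Side by side, 94 of the 178 distinct list genes in the set were higher and 10 lower, with a median of 1.06. Over all 1901 genes of the set, 43.7% were higher and 6.15% lower, with a median of 0.74, so most of this lean is shared by the set. Among the 22 lists with at least 4 genes, 16 had a median above that of the set in the main scaling. Segregation, CCT and prefoldin, nuclear transport, replication, heterochromatin and ubiquitin lists stood above the set's median in all 5 other scalings, by 0.46 or more in each. Neurofilament and spectrin, channel, redox, Polycomb and methylation, tricarboxylic acid cycle and calcium sensor lists stood below it in all 5. Set against the median of the shared window, the first 6 of these lists stood above it by 0.22 to 1.29. Of the last 6, the tricarboxylic acid cycle list was 0.05 above it and the other 5 lay at -0.76 to -0.21. The imprinted and growth factor list crossed it, at -0.27 to 0.32, and so did the receptor list, at -0.07 to 0.08. Since the lists were chosen with earlier results known, these positions describe the lists and carry no test.

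**Figure D3:**
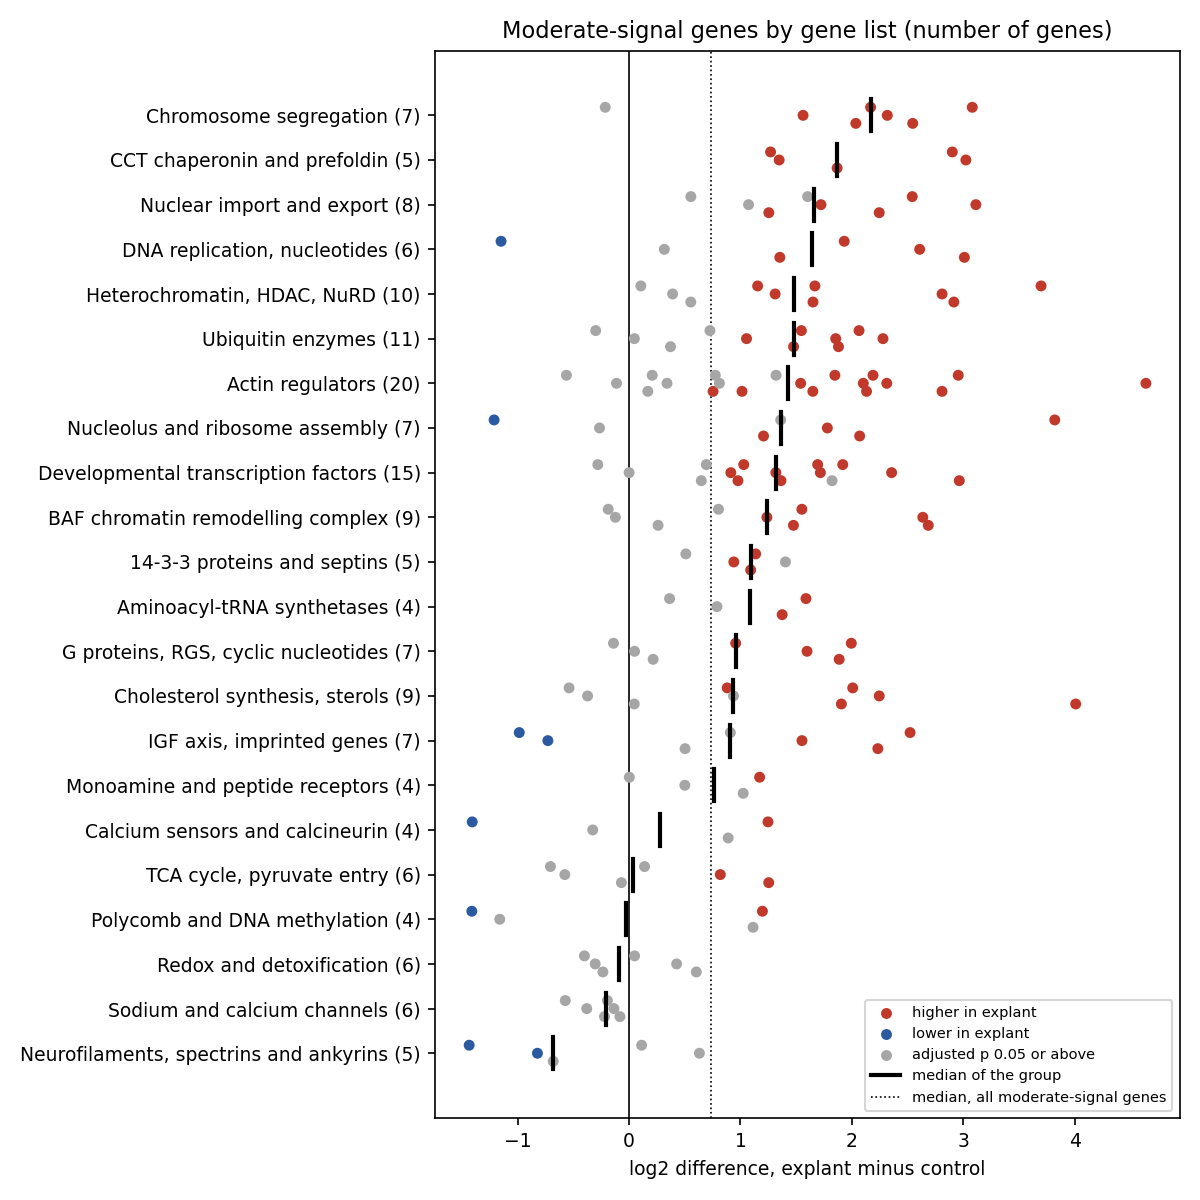
Log2 difference, explant minus control (horizontal axis), of each gene in the 22 lists with at least 4 genes at moderate signal, one row per list, coloured by call, with a bar at the list median and a dotted line at the median of all 1901 genes, 0.74. Segregation and CCT genes lie mostly to the right of the line, and channel, redox and spectrin genes to the left.

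**Figure D4:**
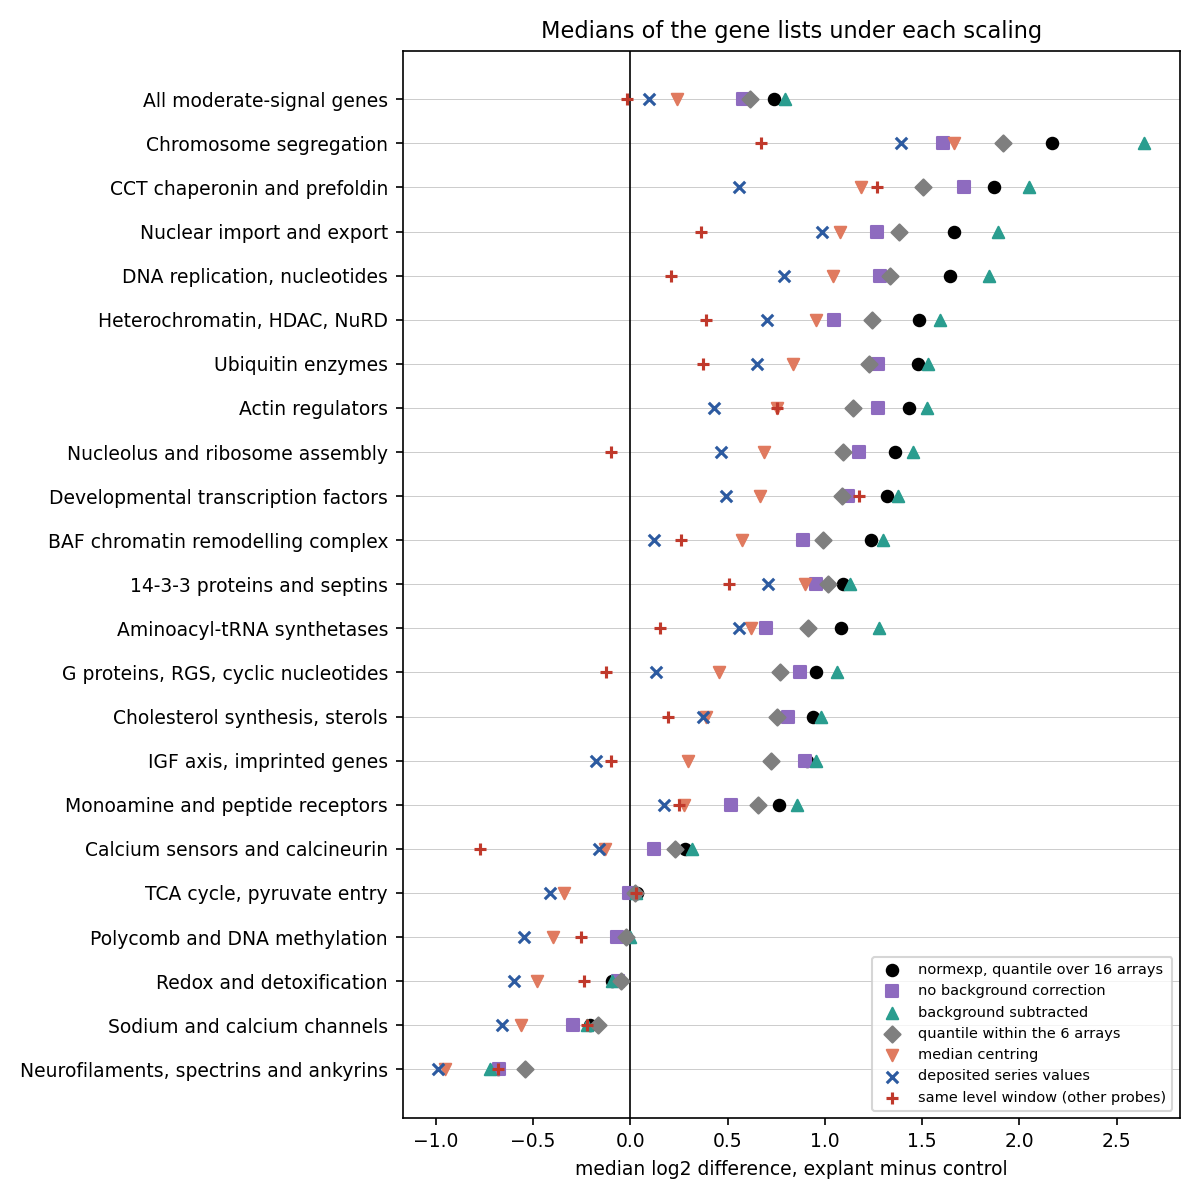
Median log2 difference of each of the 22 lists (explant minus control) in the main scaling, under 5 other scalings and in the shared level window. The list medians shift between scalings together with the median of the whole set, which ran from 0.10 to 0.81 under the 5 other scalings.

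Over the whole set, 10 rises and 10 falls were taken by smallest p, leaving out the 8 largest in each direction of all tested probes. The rises ran from 3.39 to 4.95 and the falls from -1.46 to -2.73. Hnrnpa1, a splicing repressor, had 15.02, 14.82 and 15.17 on the explant arrays, against 10.34, 10.53 and 10.40 on the control arrays, a 23.9-fold rise at 4.58 ± 0.23 (adjusted p = 2.71e-05), and its relative Hnrnpab was 16-fold higher (adjusted p = 4.92e-05). Fabp7, the brain fatty acid binding protein of radial glia, had 15.08, 15.06 and 15.47 on the explant arrays, against 10.08, 10.16 and 10.52 on the control arrays, a difference of 4.95 ± 0.25 (adjusted p = 2.92e-05). Ccnd2, a G1 cyclin of neural progenitors, had 14.32, 14.65 and 14.99 on the explant arrays, against 10.42, 10.42 and 10.08 on the control arrays, a difference of 4.34 ± 0.26 (adjusted p = 5.16e-05). Hmgb2, a DNA-bending protein, rose by 4.15 ± 0.24 (adjusted p = 4.55e-05), C1qbp, a mitochondrial matrix protein, by 4.14 ± 0.24 (adjusted p = 4.55e-05), Erh, a small conserved nuclear protein, by 3.90 ± 0.23 (adjusted p = 5.00e-05) and Cdip1, a p53 target, by 3.95 ± 0.23 (adjusted p = 5.00e-05). Marcksl1 and Hbb-y, given above, complete the 10. For each of them every explant array lay above every control array.

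Among the falls, Ndrg4, a cytoplasmic protein of neurons and heart, had 11.77, 12.18 and 11.56 on the explant arrays, against 14.60, 14.39 and 14.72 on the control arrays, a 6.65-fold fall at -2.73 ± 0.26 (adjusted p = 2.69e-04). Sult4a1, a brain sulfotransferase-like protein, had 12.36, 12.76 and 11.85 on the explant arrays, against 14.76, 14.74 and 13.99 on the control arrays, a difference of -2.17 ± 0.34 (adjusted p = 0.00228). Tacc1, a centrosomal coiled-coil protein, was lower (-1.86 ± 0.29, adjusted p = 0.00226). Slit3, a secreted guidance cue, had 12.70, 12.99 and 12.30 on the explant arrays, against 14.70, 14.31 and 14.57 on the control arrays, a difference of -1.86 ± 0.27 (adjusted p = 0.00161). Eng, an endothelial co-receptor for TGF-beta, was lower (-1.46 ± 0.22, adjusted p = 0.00218). Of the 4 summed vessel markers above, Pecam1 alone passed as lower. Acap3 was also lower (-1.55 ± 0.25, adjusted p = 0.00245). Cyp17a1, a steroid hydroxylase, was lower (-1.92 ± 0.30, adjusted p = 0.00235), and so were the long non-coding RNA gene Oip5os1 (-1.63 ± 0.26, adjusted p = 0.00259) and the odorant receptor Olfr1271 (-1.56 ± 0.25, adjusted p = 0.00259). All 10 rises and 10 falls chosen in this way held, and in none did explant and control arrays overlap.

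Families sharing a symbol stem were compared after the data were seen, beside 43.7% higher and 6.15% lower over the genes of the set. Ribosomal protein genes were higher in 21 of 22 cases for Rpl and 20 of 24 for Rps, with medians of 2.43 and 2.39. Most of them, like Npm1 and Hnrnpa1 above, have near-identical pseudogene copies, so the copy behind a probe is uncertain. Rps6, a target of growth signalling, had 15.14, 15.03 and 14.97 on the explant arrays, against 12.38, 12.04 and 12.39 on the control arrays, a difference of 2.78 ± 0.23 (adjusted p = 1.61e-04). Rpl38 was the one Rpl gene short of the threshold, at 2.60 ± 0.90 (adjusted p = 0.0511). Zinc finger genes named Zfp were higher in 14 of 25 cases and lower in none, with Zfp207, a spindle and mRNA-processing factor, at 3.34 ± 0.30 (adjusted p = 2.26e-04). Among 7 Sox genes, Sox3 was higher by 3.44 ± 0.23 (adjusted p = 7.04e-05) and Sox1 by 3.21 ± 0.39 (adjusted p = 8.11e-04), both factors of neural progenitors, and 4 were higher in all. In the shared window 2 of 3 Rpl, 4 of 5 Rps, 4 of 15 Zfp and 0 of 2 Sox genes were higher and none lower.

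Initiation factors (Eif) were higher in 7 of 15 cases (46.7%), near the share of the set, led by the RNA helicase Eif4a1 at 3.32 ± 0.28 (adjusted p = 1.84e-04), while Eif5a differed by 0.00 ± 0.23 (adjusted p = 0.989). Phosphatase genes (Ppp) gave 8 rises (44.4%) and 1 fall (5.56%) in 18, also near the set, with the catalytic subunit Ppp4c higher by 2.62 ± 0.31 (adjusted p = 6.65e-04) and the scaffold subunit Ppp2r1b lower (-1.19 ± 0.38, adjusted p = 0.0392). ATPase and ATP synthase genes (Atp) gave 8 rises in 14, among them the Golgi calcium pump Atp2c1 at 1.99 ± 0.30 (adjusted p = 0.00186). Solute carriers (Slc) had 6 higher and 5 lower of 28 and a median of 0.06, which was -0.38 under median centring and -0.49 in the authors' deposited values. Slc2a3, the neuronal glucose transporter, was higher by 1.72 ± 0.26 (adjusted p = 0.00198), and Slc4a8, a bicarbonate transporter, lower (-1.30 ± 0.27, adjusted p = 0.00719). Odorant receptor genes (Olfr), which act in olfactory sensory neurons, reached moderate signal on all 6 arrays in 22 cases, and 4 of them were lower, none higher, with a median of -0.26. These counts use the brightest probe of each gene. For Olfr739 that probe differed by -0.46 (adjusted p = 0.266), but a dimmer probe in the set was higher by 2.47 ± 0.24 (adjusted p = 3.10e-04). The dimmer probe also passed in all 5 other scalings and with each array left out. Within the window 2 higher and 0 lower of 10 Eif, 4 higher and 1 lower of 13 Ppp, 4 higher and 0 lower of 9 Atp, 3 higher and 5 lower of 24 Slc and 0 higher and 4 lower of 22 Olfr genes passed.

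**Figure D5:**
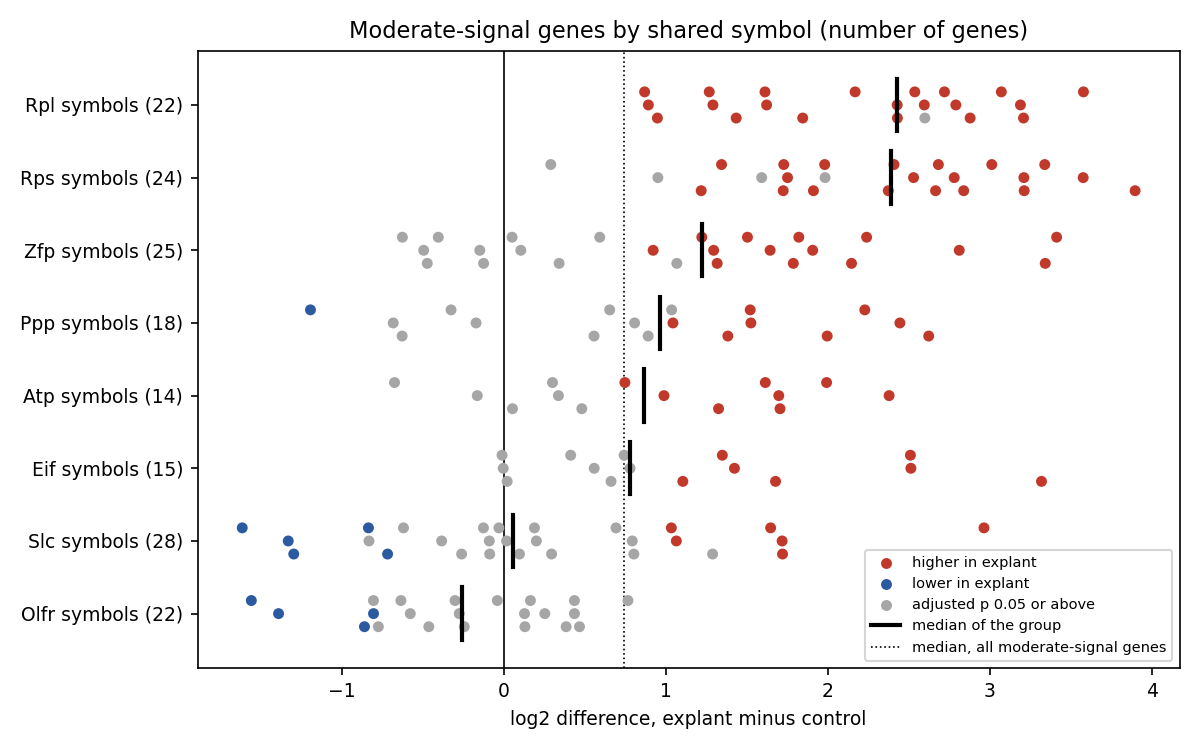
Log2 difference, explant minus control (horizontal axis), of genes at moderate signal in 8 symbol families, one dot per gene and a bar at each family median. Rpl and Rps genes centre on 2.43 and 2.39, Slc on 0.06 and Olfr on -0.26.

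How far 2 probes of a gene agreed could be read from 48 genes with several probes in the set. In 37 of them all probes had the same sign, and the median gap between probes was 0.72 on the log2 scale. The probes of 14 genes all passed in 1 direction, those of 22 passed in part and those of 10 not at all. In Btbd2 and Vash1 they passed in opposite directions, at -1.04 and 1.17 for Btbd2 and at -0.89 and 2.37 for Vash1, so neither gene is given a direction. The median gap between probes was larger than the median standard error of 0.29.

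At the edges of the set, the brightest member reached a foreground of 65474. This was a probe of Anxa6, which differed by -1.53. The 151 probes saturated on only 1 array had a median difference of -0.20. A further 2085 probes were detected on 5 of the 6 arrays, of which 1998 missed 1 explant array, with a median of 0.32.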

How the data were processed

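Each array was hybridised with Cy5-labelled cDNA of 1 RNA sample. The deposited scanner files hold, per the file headers, raw foreground and background intensity at 635 nm for 25344 spots, neither subtracted nor normalized, written by Mapix 2.5.1 for explants and 2.3.0 for control. Spot marks are scores written in the deposited files. The series table holds deposited signal values whose making by the authors is not given in the sources used here, and it served only as an alternative.

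Bad-marked spots were dropped except where saturated. Intensities of all 16 arrays of the series were background-corrected (normexp, offset 50) and quantile-normalized, taken to log2 and averaged over spots of a probe in limma 3.58.1 under R 4.3.3. Explant (3 arrays) and control (3 arrays) were fitted alone, two-sided, over the 13829 probes that at least 1 group detected on each of its arrays. The test was run on simulated data for this comparison over 12045 probes, where it recovered 4% of 50 shifts of 1 log2 unit, 76% of shifts of 2, 88% of shifts of 3 and 96% of shifts of 4. Only 50 probes were shifted at each size there, whereas 5811 of 13829 probes passed in the data. The adjusted threshold was therefore stricter in the simulation, and these shares do not give the sensitivity of the main fit. The number of arrays limits the precision. Each scan session held 1 group, so it could not enter the fit as a block.

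The platform table gave 20370 probes 1 symbol and 3739 none; symbols were then updated to current RefSeq names for 20921 probes, and 125 probes with conflicting names were not named. Members, the 29 gene lists and the tests were chosen with earlier results of these data known. Named genes are, in lists with at least 4 measured genes, up to 3 with the smallest p in each direction and no overlap of the groups, all measured genes of lists with subunits that replace each other, and the 10 rises and 10 falls with the smallest p outside the 8 largest in each direction. Further list genes are given for their roles, and genes of shorter lists and of symbol families were picked after their values were seen. Some genes that the rule names or the lists hold are not reported here, though counts and medians include them. The 5 other scalings were no background correction, background subtraction (floor 16), median centring, quantile normalization within the 6 arrays and the deposited values.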

Additional observations from a re-analysis of the deposited data

How the results depend on the processing

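Of 2106 moderate-signal probes, 1058 passed in the main fit, 927 higher and 131 lower in explants. Demanding 3 background SD left 608 (565 higher, 43 lower), and a foreground under 50000 left 75 lower. The deposited values gave 609 higher and 484 lower, median centring 613 and 293, and the shared level window, chosen after seeing the data, 390 and 378. With 1 array left out, totals ran from 820 to 1071, rises from 751 to 948 and falls from 67 to 123, the fewest falls being those without control replicate 1 (67) and control replicate 2 (69), with 87 without explant replicate 1. The median difference of 0.75 was 0.81 with background subtracted, 0.59 with no background correction, 0.62 with quantile normalization within the 6 arrays, 0.24 with median centring, 0.10 in the deposited values, 0.88 at 3 SD, 0.86 under 50000, -0.016 in the window and 0.69 to 0.78 with 1 array left out. Of all tested probes, 5811 passed, against 1428 where only probes detected on all 6 arrays were tested, since fewer probes then enter. Replicate numbers did not pair the arrays (same-numbered correlations of deviations 0.17, -0.32 and -0.35), and the fit with the replicate block gave 791 higher and 80 lower. The number of lists with a median above the set's, 16 of 22, stayed between 13 and 16 in every setting tried. Of 123 genes that passed, from the lists and the smallest p, 32 kept their sign but lost the call in the deposited values and 26 under median centring, and 1 of the 123, Cfl2, changed sign, to -0.22 in the deposited values. The cause of these shifts was not tested. Dim explant arrays limit what could be measured, with a 5th percentile of detected levels of 11.82 against 9.89 on control arrays.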
